A study of Mus musculus with 6 samples.

Results

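The insulin-like growth factor (IGF) binding proteins Igfbp1 to Igfbp7, the growth factor Igf1 and Igfals, the acid-labile subunit, were examined in mouse liver RNA. The 9 genes were selected by name, and their probes were found through the RefSeq accession that the array design gives for each probe. They had 13 probes of 39429, and represented 9 of 14807 genes measured. The family was picked with the DECB against control difference of Igfbp1 already known from these arrays, so every difference between DECB and control below is a description, and the calls attached to it support nothing further.

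The livers came from male mice of the outbred ICR stock that weighed 18 to 22 g, in a study of 24 mice in groups of 12. DECB mice (arrays DECB 4, 5 and 6) received deproteinized extract of calf blood into the stomach at 0.08 mL per 20 g of body weight daily for 35 days, and control mice (controls 1, 2 and 3) received the same volume of normal saline. The study timed survival of closed-container hypoxia, and the labels do not say whether liver was taken before or after it, nor how long the mice had been fed or fasted, and give no age. They tie no array to a mouse, so the p-values reflect variation among these arrays, part or all of which may be technical. The sample descriptions speak of 30 days for DECB and 1 day for controls, at odds with the 35 days of dosing.

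IGF-1 is made mainly by hepatocytes under the control of growth hormone, and most of it circulates in a complex with a binding protein and the acid-labile subunit. The binding proteins hold IGFs away from their receptor and are cleaved by proteases that release the ligand. Igfbp1 is made by hepatocytes, rises in fasting and is repressed by insulin through FOXO transcription factors.

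Arrays were scanned in 3 sessions, taken as slides. Slide 1 held DECB 6 and control 1, slide 2 held DECB 4 and controls 2 and 3, and slide 3 held DECB 5. Slide 1 was dim: the 75th percentile of its signals was 3.75 to 4.04 times local background, against 25 to 30.6 times on the other arrays. All 10 hepatocyte markers were measured, with a summed level of 2475 to 3017 times the array's 75th percentile on DECB arrays and 2829 to 3368 times on control arrays. Of these markers 9 had differences below 0 (median -0.29 beside -0.03 for all genes), and 0 passed. Summed blood markers (8 of 11 measured on every array, led by the alpha globins Hba-a1 and Hba-a2) were 32.7 to 86.1 times that percentile on DECB arrays and 130 to 217 times on control arrays, without overlap. The blood markers did not move together, and of 9 tested 5 lay above 0 and 4 below (median 0.01). Hba-a1 and Hba-a2 differed by -1.73 and -1.74, Alas2 by 0.88 with overlap, and the neutrophil genes S100a8 and S100a9 by 1.57 each. Hba-a1, Hba-a2, S100a8 and S100a9 were without overlap, as were 16.6% of 14749 genes in either direction. None of these 4 passed the threshold. With slide as a block S100a8 and S100a9 were higher (adjusted p = 0.0309 and 0.0215), in a fit that called 6.67% of all genes. All 5 measured cholangiocyte markers of 8 had differences above 0 (median 0.76 beside -0.03 for all genes), with Sox9 at 1.00 and Krt19 at 0.76, the last without overlap, and 0 passed. Krt19 was dim, with means of -3.33 in DECB and -4.09 in control samples. The part of any marker list in the differences below was not tested. The summed levels of endothelial (10 of 10 measured), stellate or fibroblast (10 of 12), Kupffer (9 of 10) and cholangiocyte markers overlapped between the groups. Of these, 7 endothelial, 7 stellate or fibroblast and 6 Kupffer markers lay below 0, with median differences of -0.27, -0.25 and -0.20. None passed, and with slide as a block 1 endothelial marker, Stab2, was lower (adjusted p = 0.0463). In whole liver, fewer cells of a type and less RNA per cell cannot be told apart.

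Each value is the log2 of a signal over the 75th percentile of its array, so that 0 is that percentile. Since probes differ in brightness for reasons other than RNA level, differences in level between genes were not read as differences in RNA. Marker sums are led by their brightest probes. The percentiles given with the deposited value table serve only to set it beside the scanner values. In the limma fit 31 genes were higher and 38 lower in DECB at an adjusted p under 0.05, which is 0.466% of 14807 genes, and 0.257% for the lower genes alone. Of the 9 family members 1, Igfbp1, passed. That the other 8 missed the threshold does not show that they were without a difference, and their 95% intervals are given below.

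Igfbp1 was lower on every DECB array. It stood at 3.84, 1.38 and 2.48 on DECB 4, 5 and 6, against 7.50, 6.89 and 6.56 on controls 1, 2 and 3. In processed signal these were 6099, 1376 and 474 units on the DECB arrays and 14296, 49987 and 52123 units on the control arrays. The groups did not overlap, and the dim slide 1 gave both the highest control value and an intermediate DECB value. The mean was 2.57 ± 1.23 in DECB and 6.99 ± 0.48 in control samples (SD, n = 3 each), so the DECB samples varied more among themselves than the controls. Igfbp1 fell by 4.42 on the log2 scale (SE 0.62, 95% interval -5.89 to -2.94, limma adjusted p = 0.0474), a 21.3-fold lower level and the 12th lowest difference of all genes. Within slide 1 the difference was -5.02 and within slide 2 it was -2.88. The adjusted p was above 0.05, and the call was lost, whichever 1 of the 6 arrays was left out (0.0799 to 0.222, differences -5.05 to -3.82), and likewise without slide 1, with controls 2 and 3 averaged to 1 sample, with quantile normalization and with no filter on dim probes.

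**Figure D1:**
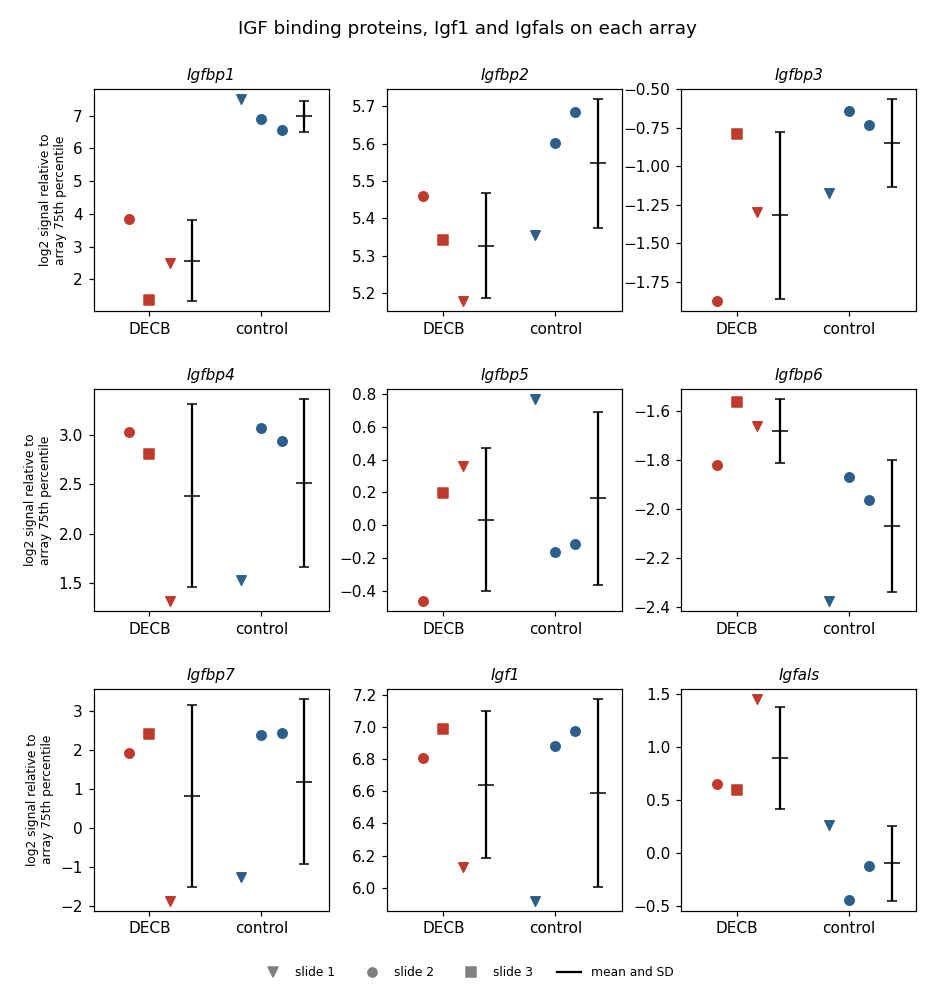
Level of each gene as log2 of its signal over the 75th percentile of its array (vertical axis, scaled separately in each panel) of the 9 genes on the 3 DECB and 3 control arrays, at the brightest probe of each gene; symbols mark the slide, and bars the mean and SD. Igfbp1 lies between 1.38 and 3.84 on DECB arrays and between 6.56 and 7.50 on control arrays, while Igfbp4, Igfbp7 and Igf1 separate by slide.

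The window around the Igfbp1 start is shown because it carries the insulin response element, a pair of FOXO binding sequences known from the human and rat genes. It covers 250 bases before to 50 after the start (RefSeq, GRCm38.p6, chr11:7197537-7197836, + strand), and capitals mark motif matches. CAAAACAA begins 108 bases before the start, CAAAATAA on the reverse strand begins 98 bases before it, and GTTAAT, part of the hepatocyte nuclear factor 1 site, on the reverse strand 56 bases before it.
Igfbp1: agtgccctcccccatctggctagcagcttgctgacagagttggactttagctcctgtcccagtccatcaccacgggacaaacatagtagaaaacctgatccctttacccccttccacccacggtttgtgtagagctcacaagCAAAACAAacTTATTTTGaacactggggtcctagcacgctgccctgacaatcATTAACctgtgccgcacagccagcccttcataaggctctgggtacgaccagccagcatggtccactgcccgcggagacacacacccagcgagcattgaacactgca

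Both strands were searched for 5 motifs, chosen with these sequences in view: the insulin response element sequences CAAAACAA and CAAAATAA, the FOXO core GTAAACA, the hepatocyte nuclear factor 1 sequence GTTAAT, and the STAT5 sequence of growth hormone targets, TTCNNNGAA. Of 32851 mouse windows of this length, CAAAACAA was in 2.51%, CAAAATAA in 1.66%, GTAAACA in 3.65%, GTTAAT in 7.1% and TTCNNNGAA in 8.3%. All 9 members had a window, 12 windows in all. Only Igfbp1 and Igfals held any of the 5 motifs in them. Igfbp3, which lies next to Igfbp1 on chromosome 11 on the opposite strand, is shown beside it (GRCm38.p6, chr11:7213874-7214173, - strand): its window held none of the motifs and was 71.7% G and C, against 54.3% for that of Igfbp1.
Igfbp3: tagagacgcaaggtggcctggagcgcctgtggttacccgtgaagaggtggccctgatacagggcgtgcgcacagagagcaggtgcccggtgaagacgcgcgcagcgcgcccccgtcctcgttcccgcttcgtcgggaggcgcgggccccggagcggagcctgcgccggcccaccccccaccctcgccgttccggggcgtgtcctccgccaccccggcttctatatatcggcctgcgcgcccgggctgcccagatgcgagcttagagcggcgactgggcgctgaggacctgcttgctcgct

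Igfals, the hepatocyte protein that locks IGF-1 and its binding protein into the long-lived serum complex, was higher on every DECB array. It stood at 0.65, 0.60 and 1.45 on DECB 4, 5 and 6, against 0.27, -0.44 and -0.12 on controls 1, 2 and 3. The groups did not overlap, and in each group the slide 1 array was the highest. The difference was 1.00 (SE 0.36, 95% interval 0.15 to 1.84), a fold of 1.99, without passing limma over all genes (adjusted p = 0.4). It was 1.19 within slide 1 and 0.92 within slide 2. With slide as a block Igfals differed by 1.04 (adjusted p = 0.0467) and Igfbp1 by -3.80 (adjusted p = 0.032), and these were the 2 members past the threshold in a fit that called 6.67% of all genes and to which DECB 5, alone on its slide, adds nothing.

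Igfals has 3 annotated starts. The window of the middle start is shown because it holds both a STAT5 sequence, 58 bases before the start, and the FOXO core, on the reverse strand 242 bases before it (GRCm38.p6, chr17:24877981-24878280, + strand). The first window holds a further TTCNNNGAA match 236 bases before its start. Which start liver used in these samples was not measured.
Igfals: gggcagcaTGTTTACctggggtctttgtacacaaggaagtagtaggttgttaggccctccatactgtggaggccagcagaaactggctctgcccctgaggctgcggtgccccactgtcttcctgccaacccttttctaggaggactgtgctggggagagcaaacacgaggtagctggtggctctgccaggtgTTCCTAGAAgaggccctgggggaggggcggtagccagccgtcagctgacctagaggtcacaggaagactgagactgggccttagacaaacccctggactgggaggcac

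Igf1 was read by 4 probes, all with the same RefSeq accession, and they fell into 2 kinds. The brightest, A_55_P2031631, stood at 6.81, 6.99 and 6.13 on DECB 4, 5 and 6, against 5.92, 6.88 and 6.97 on controls 1, 2 and 3, a difference of 0.05 (SE 0.41, 95% interval -0.90 to 1.01). A_55_P2085984 followed it (Pearson's r = 0.98 over the 6 arrays), at 6.54, 6.83 and 5.77 on the DECB arrays and 5.82, 6.65 and 6.86 on the control arrays, and differed by -0.07 (SE 0.42). At both of these probes the slide 1 arrays were the lowest of their group, and the groups overlapped.

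The other Igf1 probes were higher on each DECB array than on any control array. At the probes that represent genes, 16.6% of 14749 genes were without overlap in either direction. A_55_P2031636 stood at 0.92, 1.04 and 1.48 on DECB 4, 5 and 6, against 0.82, -0.08 and 0.47 on controls 1, 2 and 3, a difference of 0.74 (SE 0.34). A_55_P2085974 stood at 4.15, 4.20 and 4.55 on the DECB arrays, against 3.99, 3.75 and 3.73 on the control arrays, a difference of 0.48 (SE 0.27). Neither passed limma over all probes (adjusted p = 0.64 and 0.776). At these probes slide 1 gave the highest value of each group, they correlated with each other at r = 0.92, and with the brighter probes at -0.56 to -0.44. The 6 arrays share their slides, so these correlations are a description. No Igf1 spot was saturated. Which transcripts of Igf1 each probe reads is not given in the files.

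**Figure D2:**
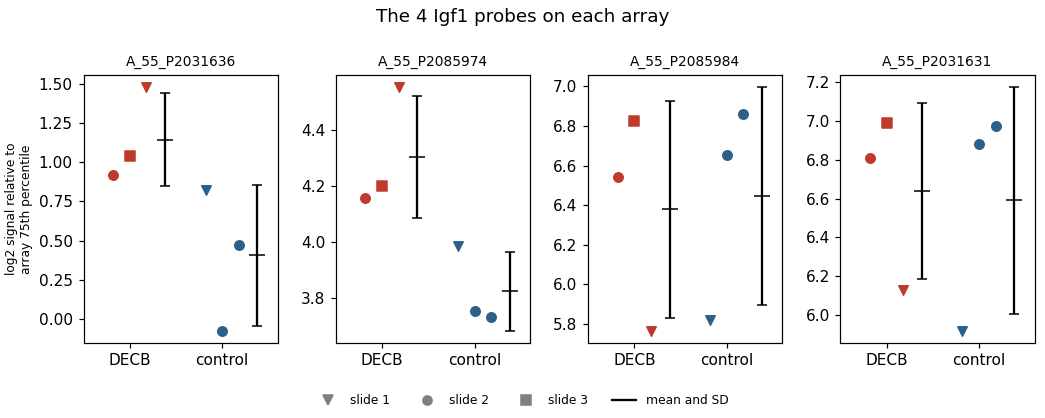
Level at each probe as log2 of its signal over the 75th percentile of its array (vertical axis, scaled separately in each panel) of the 4 Igf1 probes on DECB and control arrays, ordered from dimmest to brightest; symbols mark the slide and bars the mean and SD. The left pair is higher in DECB without overlap, by 0.74 and 0.48, and the right pair separates slide 1 from the other slides. Of 14749 genes, 16.6% were without overlap in either direction.

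Igfbp2, also made by hepatocytes, had 2 probes. At the brighter it stood at 5.46, 5.34 and 5.18 on DECB 4, 5 and 6, against 5.35, 5.60 and 5.69 on controls 1, 2 and 3. The groups overlapped, and the difference was -0.22 (SE 0.27, 95% interval -0.85 to 0.41). The other probe stood at 4.55, 4.01 and 4.24 on the DECB arrays, against 4.18, 4.30 and 4.45 on the control arrays, also with overlap, and differed by -0.04 (SE 0.28). Igfbp2 had the narrowest interval of the 9 genes. Its neighbour on chromosome 1, Igfbp5, lies on the opposite strand, as Igfbp3 does beside Igfbp1.

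Igfbp3, the main carrier of IGF-1 in serum, which rodent liver makes largely outside hepatocytes, stood at -1.87, -0.79 and -1.29 on DECB 4, 5 and 6, against -1.17, -0.64 and -0.73 on controls 1, 2 and 3. DECB 4 lay below the rest and the groups overlapped. The difference was -0.47 (SE 0.36, 95% interval -1.33 to 0.39), -0.12 within slide 1 and -1.19 within slide 2. Igfbp5, which can also form the complex with the acid-labile subunit, stood at -0.46, 0.20 and 0.36 on the DECB arrays, against 0.77, -0.16 and -0.11 on the control arrays, with overlap. It differed by -0.13 (SE 0.39, 95% interval -1.04 to 0.78), and by -0.41 and -0.32 within slides 1 and 2.

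Igfbp6 prefers IGF-2 to IGF-1. Its spot was 3.41 to 13.6 times local background, and it was well above background on 5 of the 6 arrays, all but control 1. It stood at -1.82, -1.56 and -1.66 on DECB 4, 5 and 6, against -2.37, -1.87 and -1.96 on controls 1, 2 and 3. The groups did not overlap, by a margin of less than the SD of either group, and the difference was 0.39 (SE 0.28, 95% interval -0.27 to 1.05). Within slide 2 it was 0.10. At the probes that represent the genes, Igfbp1, Igfals and Igfbp6 were thus 3 of 9 members without overlap, beside 16.6% of 14749 genes with a value on every array.

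**Figure D3:**
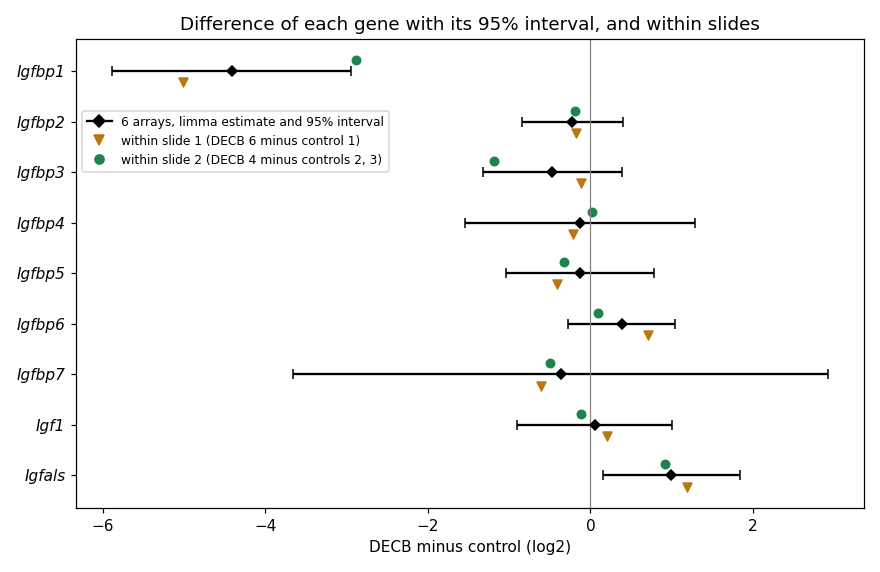
DECB minus control difference (log2, horizontal axis) of the 9 genes: diamonds and bars give the limma estimate from 6 arrays and its 95% interval, triangles the difference within slide 1 and circles that within slide 2. Igfbp1 lies at -4.42, with -5.02 and -2.88 within slides, and the interval of Igfbp7 spans -3.65 to 2.92.

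Igfbp4, a binding protein cut by the protease PAPP-A, and Igfbp7, a low-affinity relative secreted by vessel and stromal cells, each differed more between slides than between groups. Igfbp4 stood at 3.03, 2.80 and 1.32 on DECB 4, 5 and 6, against 1.54, 3.07 and 2.94 on controls 1, 2 and 3. Igfbp7 stood at 1.93, 2.43 and -1.86 on the DECB arrays, against -1.26, 2.40 and 2.44 on the control arrays. The slide 1 array was the lowest of each group for both genes, and the groups overlapped. Igfbp4 differed between DECB and control by -0.13 (SE 0.60, 95% interval -1.54 to 1.28) and Igfbp7 by -0.37 (SE 1.39, 95% interval -3.65 to 2.92). Igfbp7 was lower in DECB within both slides, with differences of -0.60 within slide 1 and -0.50 within slide 2. The fit that blocks on slide gave -0.54 (SE 0.15, adjusted p = 0.1). Igfbp4 differed by -0.21 within slide 1 and 0.025 within slide 2.

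The slide difference itself, the mean of the slide 1 arrays minus the mean of the other 4, was -3.86 for Igfbp7, and 0.271% of 14749 genes were as low or lower. It was -1.53 for Igfbp4, where 8.54% were as low or lower, and -0.89 for Igf1, and it lay between -0.26 and 0.70 for the other 6 members. The median of all genes was 0.22 and their 5th to 95th percentiles -1.95 to 1.30. Endothelial markers, from a cell type known to make Igfbp7, had a median slide difference of 0.35 and stellate or fibroblast markers of 0.50. The part of cell content in the slide difference of Igfbp7 was not tested. On slide 1 the Igfbp7 spot was 3.96 times local background on DECB 6 and 3.91 times on control 1, against 114 to 187 times on the other arrays. Igfbp4, Igfbp7 and Igf1 correlated at r = 0.95 to 0.98 over the 6 arrays, which share these slides.

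**Figure D4:**
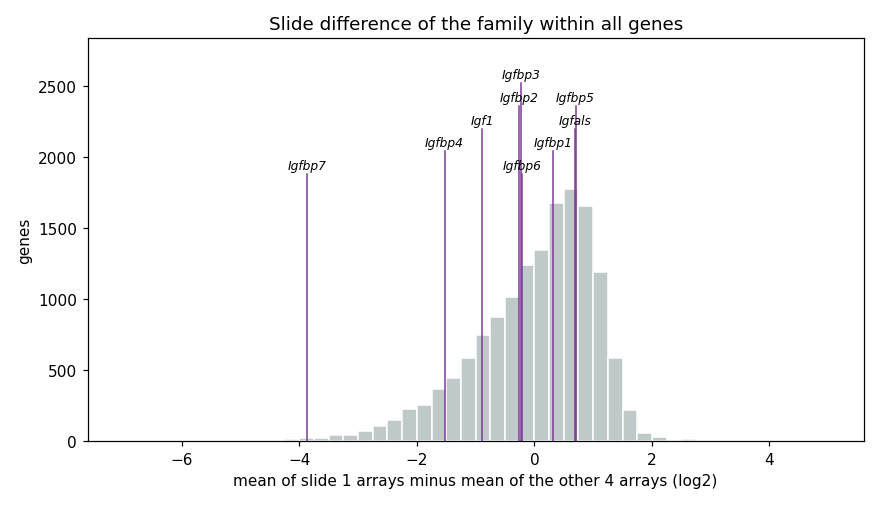
Number of genes (vertical axis) by the mean of the slide 1 arrays minus the mean of the other 4 arrays (log2, horizontal axis), with lines at the 9 family members. Igfbp7 lies at -3.86, in the far lower tail, and Igfbp1 at 0.32, near the median of 0.22.

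Over the 6 arrays the genes most like Igfbp1 were Plbd2, a lysosomal protein, Sec14l4, Fam8a1, Lpin1, a phosphatidate phosphatase, and Acot12, an acyl-CoA thioesterase, with Pearson's r of 0.99 to 1.00. Their differences were -0.71, -0.87, -0.45, -1.20 and -2.39, all smaller than that of Igfbp1, and none passed limma over all genes (adjusted p = 0.068 for Acot12, the lowest). Igfals was most like Methig1 and Fkbp4, a co-chaperone, which differed by 1.58 and 1.52. Igf1 was most like Mcoln3 and Ncbp2, Igfbp2 like Ifi208 and Ypel5, Igfbp3 like Npas4 and Lif, Igfbp4 like Slc25a4 and Catsperd, Igfbp5 like Kremen2 and Plekha5, Igfbp6 like Hpse2 and Tubd1, and Igfbp7 like Gpr139 and Pgm5. For all 9 members the r of these genes was 0.99 to 1.00. It was picked as the highest among genes with an established symbol (no Gm, Rik, LOC or clone name), members left out, so it is a description.

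Of 15 genes of IGF ligands, receptors, binding protein proteases and their inhibitors, and IGF2 mRNA-binding proteins, 10 were measured and 0 passed limma (adjusted p of 0.616 or above), with a median difference of -0.22 beside -0.03 for all genes. Insr, the insulin receptor, differed by -0.59 (SE 0.30) and Htra1, a protease that can cut binding proteins, by -0.83 (SE 0.43). Igf1r, the IGF-1 receptor, differed by -0.17 (SE 0.58), Igf2 by 0.47 (SE 0.43) and Pappa, the PAPP-A protease, by 0.26 (SE 0.36). Igf1r, Igf2 and Pappa were dim, with group means from -4.12 to -3.41, so their differences rest on weak signals. Of 13 genes outside the family whose proteins carry an IGFBP-type domain, 7 were measured and 0 passed, with a median of -0.19. Ccn2, a matrix-associated growth factor of this group, stood at -0.08, -0.87 and -0.53 on DECB 4, 5 and 6, against 1.45, 1.05 and 0.42 on controls 1, 2 and 3. The groups did not overlap, as was so for 16.6% of 14749 genes in either direction. The difference of Ccn2 was -1.47 (SE 0.38, adjusted p = 0.198). Esm1 differed by -1.04 (SE 0.54) and was dim as well, with means of -4.39 in DECB and -3.34 in control samples.

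Of 12 genes of growth hormone receptor signalling, which drives Igf1 and Igfals, 11 were measured and 0 passed, with a median of 0.06. Socs3 and Socs1, inhibitors of cytokine receptor signalling, differed by 1.505 (SE 0.40) and 1.84 (SE 0.54), and Ghr, the growth hormone receptor, by -0.20 (SE 0.54). Cish and Socs2, both STAT5 targets and named after their values were seen, differed in opposite directions, by 1.79 (SE 0.61) and -1.46 (SE 0.61). With slide as a block Socs1 was higher and Socs2 lower (adjusted p = 0.0176 and 0.0335), in a fit that called 6.67% of all genes. Without the block their limma adjusted p was 0.272 and 0.493. Socs1 was dim in controls, at -4.12 on control 1 and -2.51 and -2.63 on controls 2 and 3.

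Of 12 liver genes that FOXO factors are known to activate as they do Igfbp1, all were measured and 11 lay below 0. In limma 2 of them fell, beside 0.257% of 14807 genes that were called lower. The median was -0.78 beside -0.03 for all genes. Pdk4, which inhibits pyruvate dehydrogenase, stood at -0.91, -0.98 and -0.27 on DECB 4, 5 and 6, against 3.16, 2.66 and 3.31 on controls 1, 2 and 3 (adjusted p = 0.0252). G6pc, the catalytic subunit of glucose-6-phosphatase, stood at 1.57, 2.12 and 2.89 on the DECB arrays, against 5.60, 4.95 and 4.799 on the control arrays (adjusted p = 0.0491). Neither gene overlapped between groups, as was so for 16.6% of 14749 genes in either direction. The differences of Pdk4 and G6pc were -3.77 (SE 0.34) and -2.93 (SE 0.42). Without DECB 6 both still passed (adjusted p = 0.0179 for Pdk4 and 0.0358 for G6pc), and 0 FOXO targets passed when any other 1 of the 6 arrays was left out. Irs2, an adaptor of the insulin receptor, and Ppargc1a, a coactivator, differed by -1.63 (SE 0.41) and -1.43 (SE 0.37). With slide as a block both were lower (adjusted p = 0.0308 and 0.0368), in a fit that called 6.67% of all genes. The list holds genes already known to differ on these arrays and is no independent evidence of direction. Of its 10 genes with a promoter window, 1, Irs2, held CAAAACAA, 1, Sesn1, held GTAAACA and 0 held CAAAATAA.

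Of 17 genes that carry the insulin signal to FOXO, 14 were measured and 0 passed, with a median of -0.25. Besides Irs2, Pik3r1, a regulatory subunit of phosphoinositide 3-kinase, differed by 1.44 (SE 0.51). With slide as a block Pik3r1 was higher (adjusted p = 0.0291), in a fit that called 6.67% of all genes. Of 12 transcription factors known to act on Igfbp1, 0 passed, with a median of -0.09. Ppara, the receptor of the fasting response, stood at 3.44, 3.56 and 3.70 on DECB 4, 5 and 6, against 5.47, 4.96 and 5.25 on controls 1, 2 and 3, a difference of -1.66 (SE 0.28, adjusted p = 0.068). Foxo1 differed by -0.71 (SE 0.39).

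**Figure D5:**
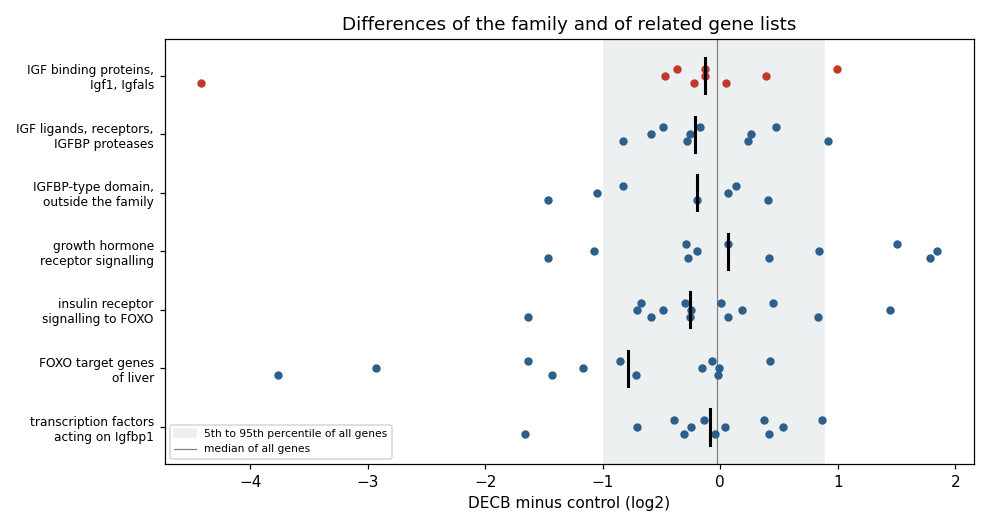
DECB minus control differences (log2, horizontal axis) of the family (top row) and of the measured genes of 6 related lists; black bars are medians, the grey line the median of all genes and the band their 5th to 95th percentiles. The FOXO target list has the lowest median, -0.78, and within the family Igfbp1 at -4.42 lies far outside the band.

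The deposited value table gave other values for these probes. In it Igfbp1 stood at 2.86, 2.41 and 2.67 in the DECB columns and at 2.32, 2.33 and 2.35 in the control columns, close to the lowest value of each column (2.32 to 2.41), where the scanner files placed it above 96.8% of probes. Igfals was likewise at 2.33 to 2.48. The hepatocyte markers Alb, Ttr and Apoa1 stood above 70.3%, 56.5% and 29.8% of probes in the table, against 99.99%, 99.7% and 97.8% by the scanner values. Whether the table holds these liver samples was not tested. Across probes, the table's deviations from each probe's mean correlated with those of the scanner values at -0.04 to 0.03, and the table was used in no comparison. Its columns correlated with the scanner values of their own array at 0.742 to 0.774 and with those of other arrays at 0.729 to 0.773. Its making is not described in the labels or headers.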

How the data were processed

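Liver RNA was measured on 6 Agilent 1-colour (Cy3) arrays. Per the file headers, the deposited scanner files come from Agilent Feature Extraction 11.0.1.1, as the submitters' processing notes also say. Per the file headers, that software subtracted background from the processed intensity and removed spatial trends. The authors' files also give the median intensity of each spot and its local background, unprocessed. The deposited value table is on a log2 scale, with median 5.34 in every column, and its scale base, centring and direction are otherwise unstated.

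The log2 of the processed intensity was taken relative to each array's 75th percentile over 43020 non-control spots. Control spots (1377) and spots marked as outliers (164 to 322 per array) were left out, and no spot was saturated. Spots of a probe were averaged. A probe was kept if 3 or more of the 6 arrays had it well above background, and each gene took its brightest probe. Of 28684 probes with a RefSeq accession, 27234 were named through RefSeq (GRCm38.p6). The array design names build mm9, so gene coordinates are not given, and promoter windows are in GRCm38.p6. Between 14925 and 29517 of 39429 probes per array were well above background, which with the number of arrays limits precision.

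Differences were fitted in limma 3.58.1 under R 4.3.3 (lmFit, then eBayes, two-sided, Benjamini-Hochberg over all genes). The fit was tried on simulated data without slide differences, so that trial does not show how it performs on these arrays. The smallest exact permutation p for 3 against 3 arrays is 0.1. For 58 genes at least 1 array had no value, and the fit used the others. Alternatives were normexp (on median signals, since the files hold no mean signal), quantile normalization, other filters, slide as a block or left out, the mean of a gene's probes, controls 2 and 3 averaged, and each array left out. Members, lists and alternatives were chosen with earlier results of these data known. Named were all members, list genes past the threshold, the 2 further genes of smallest p in each list, and the genes most correlated with each member (5 for Igfbp1, 2 for others). The correlated genes were picked among genes with an established symbol, members left out. Igf1r, Igf2, Pappa, Ghr, Cish and Socs2 were named outside this rule.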

Additional observations from a re-analysis of the deposited data

How the results depend on the processing

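Of 16 alternatives, Igfbp1, Igfals, Igfbp2, Igfbp3 and Igfbp6 had the same sign in all, with ranges of -5.05 to -2.88, 0.72 to 1.19, -0.32 to -0.0055, -1.19 to -0.12 and 0.10 to 0.71. The call of Igfbp1 was lost with quantile normalization (-4.31, adjusted p = 0.0744), with no filter (-4.42, 0.159), without slide 1 (-4.11, 0.0972) and with controls 2 and 3 averaged (-4.54, 0.216), which left 0 members called in each. It was also lost in a fit over all kept probes (adjusted p = 0.0725). With 1 array left out 0 members were called, and Igfbp1 ranged from -5.05 to -3.82, where each fit had 1 sample fewer; other causes were not tested.

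With slide as a block 2 members were called (Igfals at 1.04). So were 2 genes each of the growth hormone and insulin signalling lists, 4 FOXO targets and 1 transcription factor, Ppara. These added calls came as the share of all 14807 genes under the threshold rose to 6.67%, from 0.466% in limma without the block. Ppara also passed with the strict filter (1). With the mean of probes 1 growth hormone gene passed. FOXO targets called were 1 with quantile normalization, 0 with no filter, 0 with controls averaged and 0 to 2 with 1 array left out.

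Some signs turned, with causes not tested, and the estimate of Igfbp7 ranged widely to both sides of 0. With controls averaged, Igfbp4 and Igfbp7 were at 0.12 and 0.25 and the median of IGF ligands, receptors and proteases at 0.10. Without slide 1, Igfbp5 was at 0.0085 and Igf1 at -0.028. Within slide 2, Igfbp4 was at 0.025 and Igf1 at -0.12. With 1 array left out Igfbp4 ranged from -0.62 to 0.40 (0.15, 0.083 and 0.40 without control 2, control 3 and DECB 6), Igfbp5 from -0.29 to 0.17 (0.17 and 0.12 without control 1 and DECB 4), Igfbp7 from -1.59 to 0.98 (0.24, 0.26 and 0.98 without control 2, control 3 and DECB 6), Igf1 from -0.29 to 0.31 (-0.29, -0.033 and -0.12 without control 1, DECB 4 and DECB 5), and that list's median from -0.27 to 0.14.

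Genes called higher and lower were 15 and 22 with quantile normalization, 70 and 70 with the strict filter, 405 and 583 with slide as a block, 0 and 2 with controls averaged, and 0 and 0 by limma with no filter (1257 at an unadjusted p under 0.05). With 1 array left out they ran from 0 to 18 and from 0 to 35 (853 to 2118 genes at an unadjusted p under 0.05). No paired analysis was possible because the groups share no replicate number. Controls 2 and 3 may be 1 sample hybridised on 2 arrays, which the files cannot tell apart.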
